A study of Homo sapiens with 24 samples.

Results

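The transcripts described here are 10 genes of the transforming growth factor β (TGFβ) system, namely the ligands TGFB1, TGFB2 and TGFB3, the latent TGFβ binding proteins LTBP1 and LTBP2, the receptors TGFBR1 and TGFBR2, the pseudoreceptor BAMBI and the coreceptors TGFBR3 and ENG. They were chosen by name, and every probe whose gene name in the array files is one of these was used. They are 10 of 25992 gene names on the array and 12 of its 34127 probes, 1 for each gene except TGFBR2 and LTBP1, which had 2 each. The second TGFBR2 probe was not well above background on all 3 arrays of any group, so 11 probes were among the 23827 tested. The samples came from A549 and H1975, established human lung adenocarcinoma cell lines. Cells of each line received 0.75 mg/ml Pirfenidone, an antifibrotic drug, or the respective volume of PBS, and RNA was taken after 6 h or 24 h. This made 8 groups of 3 samples, all hybridized to single-dye Agilent arrays, 1 array a sample. The labels do not say whether the replicates were separate cultures, so p-values measure the spread between these samples, which may be technical. Each line is a single cell model without fibroblasts or immune cells around it, and the arrays measured RNA in bulk, so a lower level in every cell and a loss from some of the cells cannot be told apart.

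TGFβ is secreted in a latent form, in which the mature dimer stays enclosed by its own propeptide, and LTBP1 ties this complex to the extracellular matrix until integrins or proteases release it. The released ligand binds the kinase receptor TGFBR2, which recruits and phosphorylates TGFBR1, and TGFBR1 then phosphorylates SMAD2 and SMAD3. TGFBR3 (betaglycan) presents ligand, TGFβ2 in particular, to TGFBR2, ENG (endoglin) is a coreceptor best known from endothelial cells, and BAMBI resembles a receptor without a kinase and dampens the signal. In lung tumors the system is known for early growth restraint and for later roles in epithelial to mesenchymal transition and in the reaction of the stroma.

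The lines differed most, with TGFB3 and ENG higher in H1975 and TGFB1, TGFBR3 and BAMBI higher in A549 at both times. After 6 h of Pirfenidone, TGFB2 was lower than in PBS on all arrays of both lines, and the difference passed the adjusted p in H1975, and in A549 with run as a block. The changes of the lines did not pass as different from each other. After 24 h, LTBP1 rose about 2-fold in H1975 on both probes, and the brighter probe passed close to its threshold. The difference of this LTBP1 change from that of A549 passed only with run as a block.

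The sequences below belong to the items that carry these differences. The array files place the TGFB1 probe on the minus strand of chromosome 19 between 41838142 and 41847802 and the ENG probe on the minus strand of chromosome 9 between 130578317 and 130579471 (hg19), and since both spans are far longer than the 60 bases of a probe, these probes cross introns and read spliced RNA. The second LTBP1 probe lies in a single block of 60 bases on the plus strand of chromosome 2, from 33590413 to 33590472. No bases are capitalized in the probes.
TGFB1 probe: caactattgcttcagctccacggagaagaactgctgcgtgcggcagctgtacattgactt
ENG probe: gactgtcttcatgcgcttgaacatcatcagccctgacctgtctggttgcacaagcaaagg
LTBP1 probe: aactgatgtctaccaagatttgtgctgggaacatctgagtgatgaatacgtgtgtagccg

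The other probes each lie in a single block of 60 bases in the same files. TGFB2 was read at chr1:218614784-218614843 on the plus strand, TGFB3 at chr14:76424904-76424963 on the minus strand and LTBP2 at chr14:74965452-74965511 on the minus strand. The remaining LTBP1 probe, the brighter of the pair, was read at chr2:33623836-33623895 on the plus strand. TGFBR1 was read at chr9:101916322-101916381 and BAMBI at chr10:28971551-28971610, both on the plus strand. TGFBR3 was read at chr1:92148888-92148947 on the minus strand. The brighter TGFBR2 probe was read at chr3:30735163-30735222 and the dim one at chr3:30703057-30703116, both on the plus strand. Of the 12 probes, 11 carried an accession that the RefSeq gene table of GRCh38.p14 lists, each under the same symbol, and the dim TGFBR2 probe did not. Without an annotation of hg19, exons and untranslated regions are not given.

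Promoter sequence is shown for TGFB2 and LTBP1, the genes with the largest Pirfenidone differences at 6 h and at 24 h. Each is the 250 bases before a RefSeq transcription start on GRCh38.p14, with 4 motifs in capitals wherever they occur on either strand. The motifs were the CRE/ATF core TGACGT, its palindromic full form TGACGTCA, the E-box CACGTG and the TATA box TATAAA, and the full form contains the core.
TGFB2, chr1:218345086-218345335, plus strand: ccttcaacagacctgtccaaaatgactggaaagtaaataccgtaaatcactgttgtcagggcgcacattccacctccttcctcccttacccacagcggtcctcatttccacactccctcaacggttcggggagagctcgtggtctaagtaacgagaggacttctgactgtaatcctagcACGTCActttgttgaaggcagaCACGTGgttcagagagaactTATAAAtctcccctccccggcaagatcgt
LTBP1, chr2:32946703-32946952, plus strand: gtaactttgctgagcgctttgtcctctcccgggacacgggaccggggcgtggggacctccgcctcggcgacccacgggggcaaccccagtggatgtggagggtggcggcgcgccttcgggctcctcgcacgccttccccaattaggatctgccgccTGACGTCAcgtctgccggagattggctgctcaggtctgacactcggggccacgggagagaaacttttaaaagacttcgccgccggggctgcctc

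In TGFB2, the core begins 71 bases before the start, on the minus strand, the E-box begins 49 bases and the TATA box 29 bases before it. In LTBP1, the full CRE/ATF element begins 94 bases before the most upstream of 3 listed starts, and the windows of the other 2 starts hold none of the 4 motifs. Among all 35116 promoter windows of this length, 7.1% held the core, 1.65% the full element, 6.34% the E-box and 10.7% the TATA box. Of the 21 windows listed for the 10 genes, 3 held the core (LTBP1, TGFB2 and TGFB3), 1 the full element (LTBP1), and 2 each the E-box and the TATA box (TGFB2 and TGFB3 in both cases), and TGFB3 did not pass with Pirfenidone in either line. These matches describe the letters in the windows, and the probes do not say which LTBP1 start was used.

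Levels are log2 values of processed signal after the 75th percentile of the array was subtracted, so negative values are dimmer than that percentile. They compare samples for 1 probe and not probes with each other. The share of probes well above background ranged from 62.7% to 69.5% over the arrays, and none was saturated. The array files fall into 4 dates, called runs 1 to 4 here, and each group of A549 holds 1 array each of runs 1, 2 and 3 and each group of H1975 1 array each of runs 1, 3 and 4. Position on the slide followed treatment and time and cannot be told apart from them. Arrays of the same line and run shared a slide, except that the H1975 PBS array of run 3 at 24 h lay on a separate slide. In that pair at 24 h, treatment and slide cannot be told apart. All 7 epithelial markers examined were well above background on every array of both lines, whereas KDR, TEK, CLDN5 and EMCN, markers of endothelium, and COL3A1 and DCN, markers of fibroblasts, were so on no array. In 1 pair of A549 arrays at 24 h, those of run 1, 10 G2/M genes examined as a check were higher in Pirfenidone (median log2 difference 1.60), whereas all 10 were lower in the pairs of runs 2 and 3 (medians -0.26 and -0.96), and the drug changes of these genes in A549 at 24 h are therefore given with and without the pair of run 1, except for ENG.

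**Figure D1:**
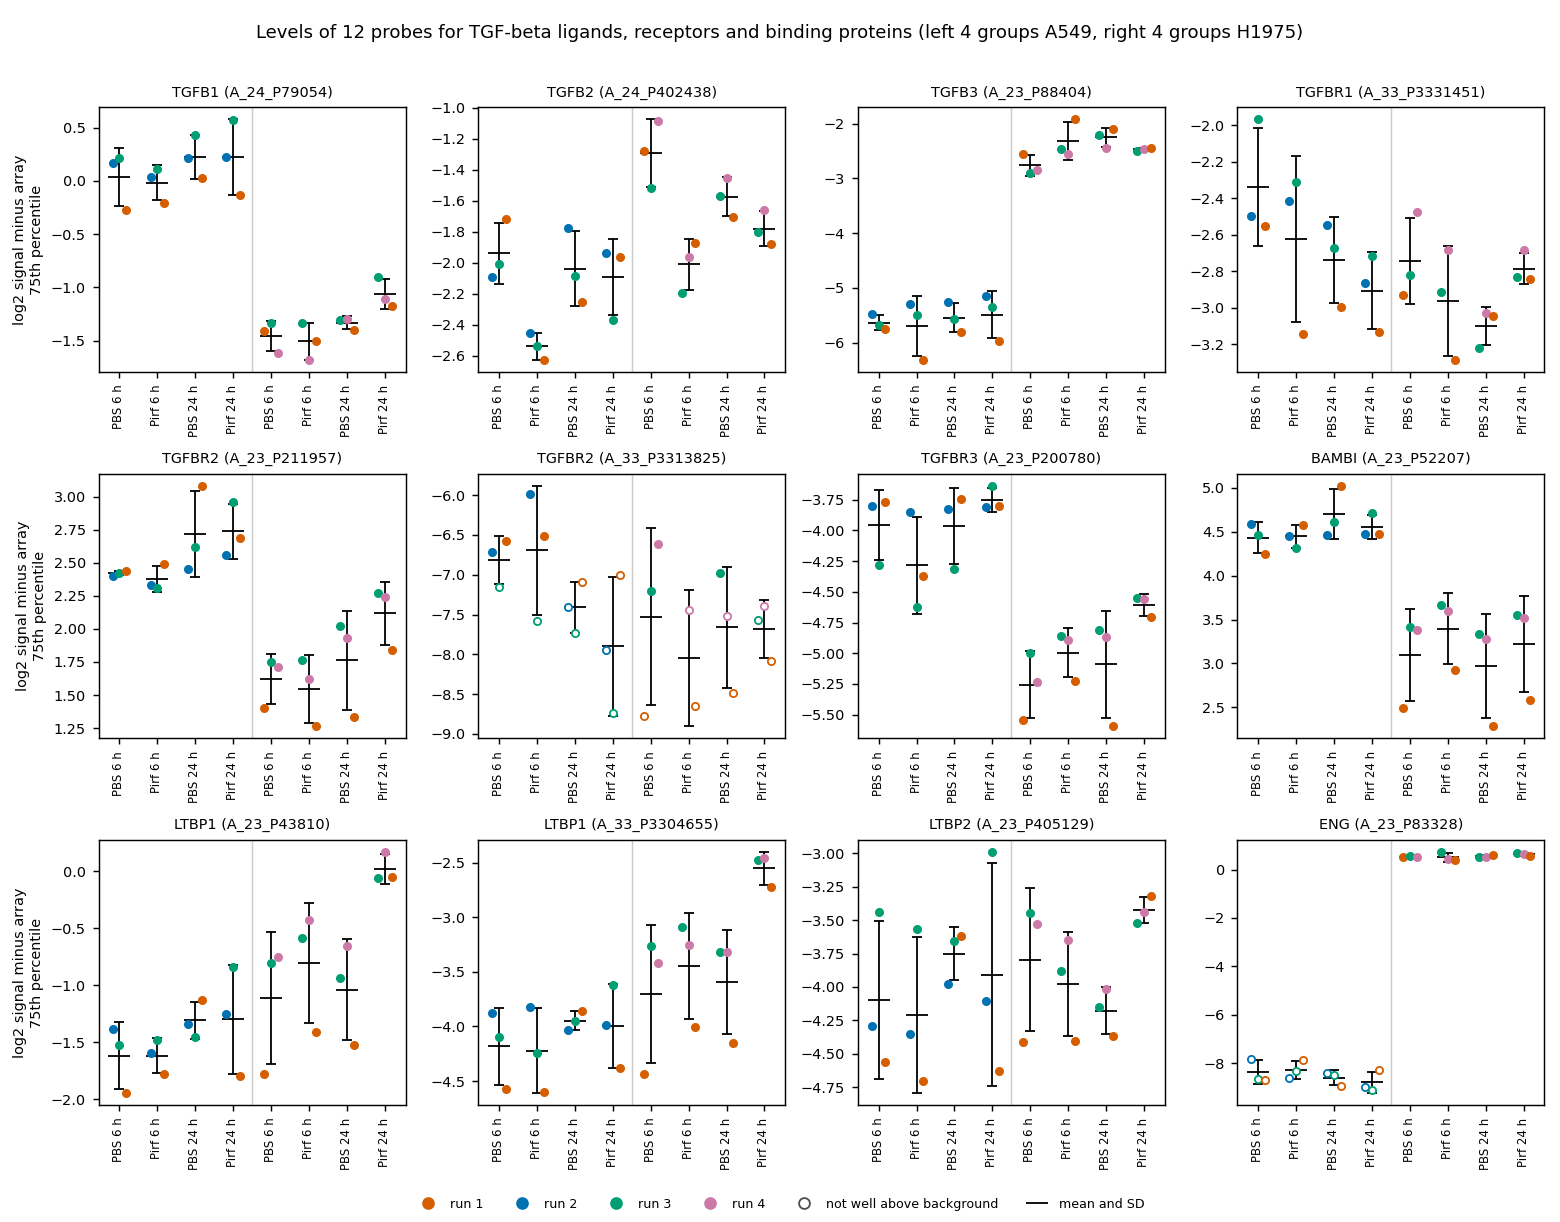
Levels of the 12 probes on all arrays, as log2 signal minus the 75th percentile of the array, with 1 panel per probe, its own vertical scale, A549 groups on the left and H1975 groups on the right. Points are arrays colored by run, open points were not well above background, and bars give the mean and SD of the 3 arrays (2 for the dim TGFBR2 probe in H1975 with Pirfenidone at 6 h). TGFB3 and ENG lie higher and TGFB1, TGFBR3 and BAMBI lower in H1975, and LTBP1 is highest in H1975 after 24 h of Pirfenidone.

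TGFB1 encodes the TGFβ ligand most often studied in fibrosis and cancer. In A549 treated with PBS, its level in replicates 1, 2 and 3 was 0.17, 0.21 and -0.28 at 6 h and 0.22, 0.43 and 0.02 at 24 h. In H1975 treated with PBS, it was -1.41, -1.34 and -1.61 at 6 h and -1.30, -1.29 and -1.40 at 24 h. All H1975 arrays thus lay below all A549 arrays, and the difference was -1.49 ± 0.17 (log2, SE) at 6 h (limma adjusted p = 3.73e-07) and -1.56 ± 0.17 at 24 h (limma adjusted p = 2.01e-07). Within runs 1 and 3, which held both lines, the difference was -1.14 and -1.55 at 6 h and -1.42 and -1.74 at 24 h.

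Pirfenidone moved TGFB1 little. At 6 h its log2 change was -0.05 in each line. At 24 h it was 0.00 in A549, or 0.07 without the pair of run 1, and 0.27 in H1975, where the 95% confidence interval ran from -0.09 to 0.63. In H1975 with Pirfenidone at 24 h the levels were -0.91, -1.11 and -1.18, all above those of PBS, and the limma adjusted p was 0.385. Between these groups, 31.9% of all tested probes had no overlap. With run as a block, which compares arrays of the same run, the limma adjusted p of the H1975 change at 24 h was 0.0441. With this block and no fold limit, 21.8% of all tested probes passed.

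TGFB2 encodes the ligand that depends most on betaglycan for receptor binding. In A549 at 6 h, its level in replicates 1, 2 and 3 was -2.09, -2.01 and -1.72 with PBS and -2.45, -2.54 and -2.63 with Pirfenidone. In H1975 at 6 h, it was -1.28, -1.52 and -1.08 with PBS and -2.19, -1.97 and -1.87 with Pirfenidone. In each line, every Pirfenidone array lay below every PBS array, which held for 1 of the 11 tested probes in each line, whereas 15.3% of all tested probes in A549 and 17.7% in H1975 had no overlap between the groups.

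The log2 change of TGFB2 at 6 h was -0.60 ± 0.15 (SE) in A549 and -0.72 ± 0.15 in H1975, with limma adjusted p of 0.146 and 0.0236. It passed the adjusted p in H1975 without reaching 2-fold, as did 1.41% of all tested probes with no fold limit. The differences within runs were -0.91, -0.36 and -0.53 in runs 1, 2 and 3 of A549 and -0.59, -0.68 and -0.88 in runs 1, 3 and 4 of H1975. With run as a block, the adjusted p was 0.0451 in A549 and 0.00643 in H1975, with 1.65% and 6.83% of all tested probes passing. In H1975 the adjusted p was between 0.0238 and 0.133 when 1 array was left out, and 0.149 with normexp background correction, where the change was -0.35.

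At 24 h, TGFB2 levels in A549 were -1.78, -2.09 and -2.25 with PBS and -1.94, -2.37 and -1.96 with Pirfenidone, and the groups overlapped. In H1975 they were -1.57, -1.45 and -1.70 with PBS and -1.80, -1.66 and -1.88 with Pirfenidone. The log2 change was -0.05 in A549, with a 95% confidence interval from -0.38 to 0.27, and -0.21 in H1975, with an interval from -0.53 to 0.12. Without the pair of run 1, it was -0.23 in A549 (limma adjusted p = 0.834). The change at 24 h minus that at 6 h was 0.55 ± 0.22 in A549 and 0.51 ± 0.22 in H1975, and neither passed (limma adjusted p = 1 and 0.775). Between the lines the 6 h changes differed by -0.12, with a 95% confidence interval from -0.57 to 0.34. In PBS, TGFB2 was higher in H1975 than in A549 by 0.65 at 6 h and 0.46 at 24 h, without overlap and below 2-fold (limma adjusted p = 0.00129 and 0.014).

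TGFB3, the remaining ligand, was the ligand that separated the lines most. In A549 treated with PBS, its level was -5.48, -5.68 and -5.74 at 6 h and -5.26, -5.57 and -5.80 at 24 h. In H1975 it was -2.55, -2.90 and -2.84 at 6 h and -2.21, -2.45 and -2.10 at 24 h. H1975 exceeded A549, on the log2 scale with the SE, by 2.87 ± 0.24 at 6 h and 3.29 ± 0.24 later (limma adjusted p = 5.8e-09 and 7.96e-10). Within runs 1 and 3 it was 3.19 and 2.78 at 6 h and 3.70 and 3.36 at 24 h.

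Pirfenidone changes of TGFB3 did not pass in either line. In H1975 the log2 change was 0.45 ± 0.24 after 6 h and -0.22 ± 0.24 after 24 h (limma adjusted p = 0.549 and 0.683). Neither passed with run as a block (limma adjusted p = 0.0716 and 0.289). The A549 changes were -0.06 and 0.05, and the latter was 0.16 without the pair of run 1. With PBS alone, TGFB3 was 0.51 ± 0.24 higher in H1975 at 24 h than at 6 h, without overlap, as for 18.9% of all tested probes (limma adjusted p = 0.469). With run as a block the adjusted p was 0.0406, beside 7.63% of all tested probes passing. It was the only probe of the 11 with an unadjusted p below 0.05 between the times in either line.

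LTBP1 encodes the protein that links latent TGFβ to the matrix, and it gave the single call among these genes for Pirfenidone. In H1975 at 24 h, the brighter LTBP1 probe measured -0.94, -0.65 and -1.52 with PBS in replicates 1, 2 and 3 and -0.06, 0.17 and -0.05 with Pirfenidone. The second probe, whose sequence is printed above, measured -3.32, -3.32 and -4.15 with PBS and -2.48, -2.46 and -2.72 with Pirfenidone. On both probes all Pirfenidone arrays lay above all PBS arrays, and 31.9% of all tested probes had no overlap between these groups.

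The brighter LTBP1 probe rose by 1.06 ± 0.30 (log2, SE; 95% confidence interval 0.43 to 1.69; limma adjusted p = 0.0428), and the second probe differed by 1.04 ± 0.32 (limma adjusted p = 0.0555). Thus 1 of the 11 tested probes passed, beside 1.89% of all tested probes, of which 0.89% were higher and 1% lower. The differences within runs 1, 3 and 4 were 1.47, 0.88 and 0.82 on the brighter probe and 1.42, 0.84 and 0.87 on the second. Both probes passed with run as a block (limma adjusted p = 0.00384 and 0.00276), beside 2.95% of all tested probes. The call stood close to its threshold. It was lost when any single array of this comparison except the PBS array of replicate 2 was left out, with changes between 0.82 and 1.11, and it was lost with normexp background correction (0.99, limma adjusted p = 0.0877).

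Elsewhere LTBP1 did not pass. In H1975 at 6 h, the brighter probe measured -1.77, -0.81 and -0.75 with PBS and -0.59, -0.42 and -1.41 with Pirfenidone, and the change was 0.31 ± 0.30 (limma adjusted p = 0.851), with 0.37, 0.22 and 0.33 within runs 1, 3 and 4. In each H1975 group but the one with Pirfenidone at 24 h, the array of run 1 was the lowest by at least 0.5 on this probe. In A549 it measured -1.38, -1.53 and -1.94 with PBS and -1.59, -1.48 and -1.78 with Pirfenidone at 6 h. At 24 h the A549 levels were -1.34, -1.45 and -1.13 with PBS and -1.25, -0.84 and -1.79 with Pirfenidone, and the pairs of runs 1, 2 and 3 differed by -0.67, 0.08 and 0.61. The A549 change at 24 h was 0.01, with a 95% confidence interval from -0.62 to 0.64, and 0.35 ± 0.35 without the pair of run 1 (limma adjusted p = 0.892), or 0.19 ± 0.39 on the second probe.

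Whether LTBP1 responded differently in the lines was tested directly. At 24 h the H1975 change exceeded the A549 change by 1.05 ± 0.42 (log2, SE) on the brighter probe and by 1.09 ± 0.45 on the second (limma adjusted p = 0.311 and 0.315). Both passed with run as a block (limma adjusted p = 0.0489 and 0.0338), beside 1.67% of all tested probes. With the block but without the A549 pair of run 1, a combination added after seeing the data, the differences were 0.71 and 0.86 (limma adjusted p = 0.151 and 0.0852). In H1975 the change at 24 h exceeded that at 6 h by 0.75 ± 0.42 (limma adjusted p = 0.932). The 10 G2/M genes were lower with Pirfenidone in all pairs of H1975 at 24 h, with medians of -1.88, -0.98 and -1.02 in runs 1, 3 and 4, and the LTBP1 difference was also largest in run 1 of the 3, and their part in the LTBP1 result was not tested. Of 7 fibroblast markers, 4 were bright enough to test, and none passed in H1975 at 24 h (median change 0.32). With PBS, the LTBP1 level did not pass between the lines, with differences of 0.51 at 6 h and 0.27 at 24 h on the brighter probe.

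LTBP2 encodes a matrix protein of the same family that is not known to bind latent TGFβ tightly. In H1975 at 24 h, its level was -4.15, -4.02 and -4.37 with PBS and -3.52, -3.44 and -3.32 with Pirfenidone. The groups again did not overlap, as for 31.9% of all tested probes. The change was 0.75 ± 0.38 (log2, SE; limma adjusted p = 0.253, and 0.0404 with run as a block), and 1.04, 0.63 and 0.58 within runs 1, 3 and 4. With the block and no fold limit, 21.8% of all tested probes passed in H1975 at 24 h. In H1975 at 6 h the LTBP2 change was -0.18 ± 0.38, and the A549 changes were -0.11 and -0.16 after 6 h and 24 h. In A549 at 24 h the pairs of runs 1, 2 and 3 differed by -1.0, -0.13 and 0.66, and the change without the pair of run 1 was 0.27 ± 0.43 (limma adjusted p = 0.954). Between the lines with PBS, the difference was 0.30 at 6 h and -0.43 at 24 h, and neither passed.

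**Figure D2:**
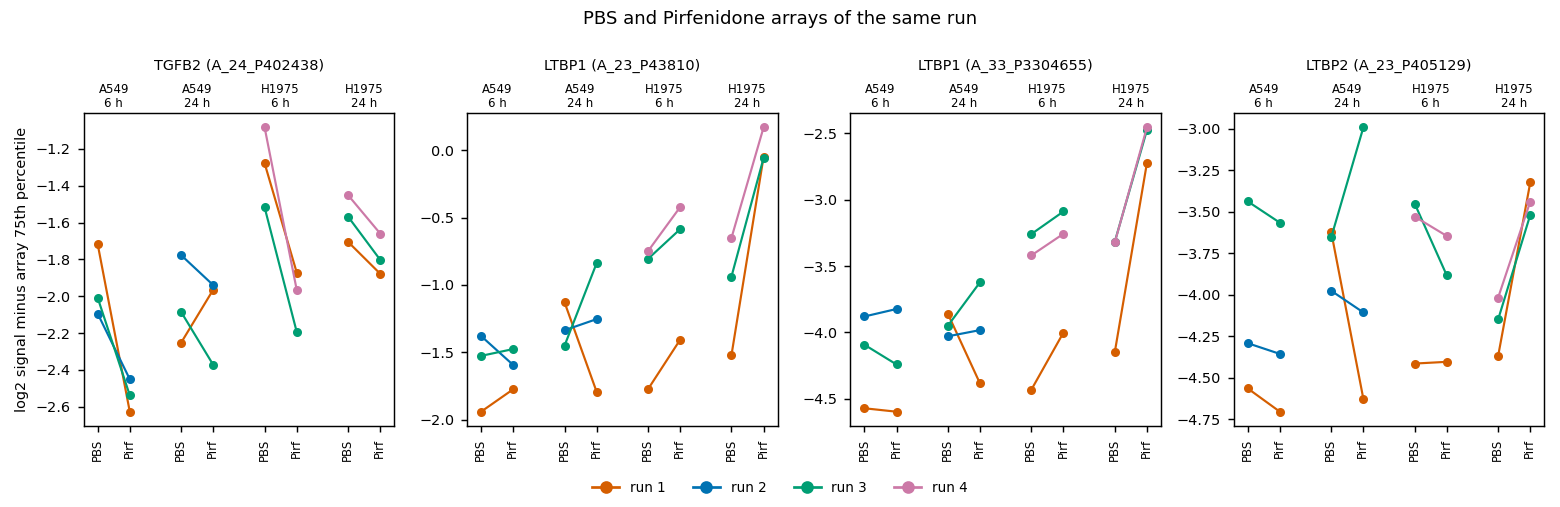
Levels of TGFB2, both LTBP1 probes and LTBP2, as log2 signal minus the 75th percentile of the array, with each line joining the PBS and the Pirfenidone array of the same run. TGFB2 falls in all 6 pairs at 6 h, and both LTBP1 probes and LTBP2 are higher with Pirfenidone in all 3 pairs of H1975 at 24 h, whereas the A549 pairs at 24 h point in different directions.

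Among the signaling receptors, TGFBR2 passed the adjusted p between the lines without reaching 2-fold, and TGFBR1 passed it only with run as a block. The brighter TGFBR2 probe measured 2.40, 2.43 and 2.44 in A549 and 1.40, 1.75 and 1.71 in H1975 with PBS at 6 h. At 24 h it measured 2.46, 2.62 and 3.08 in A549 and 2.02, 1.93 and 1.33 in H1975. The line difference was -0.80 ± 0.19 (log2, SE) and -0.96 ± 0.19 (limma adjusted p = 0.00151 and 0.000291), below 2-fold at both times. With run as a block it was -1.08 at 24 h. The size differed between runs 1 and 3, with -1.03 and -0.68 at 6 h and -1.75 and -0.60 at 24 h. In H1975 at 24 h, the level with Pirfenidone was 2.27, 2.24 and 1.84. The change of 0.36 ± 0.19 did not pass (limma adjusted p = 0.294, and 0.0423 with run as a block). With the block and no fold limit, 21.8% of all tested probes passed there. The other drug changes of TGFBR2 were -0.04 and 0.02 in A549 at 6 h and 24 h and -0.07 in H1975 at 6 h, and their confidence intervals all included 0. Without the pair of run 1, the A549 change at 24 h was 0.22 ± 0.22 (limma adjusted p = 0.887). The dim TGFBR2 probe was well above background on at most 2 arrays of a group and has no test.

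TGFBR1 measured -2.50, -1.97 and -2.55 in A549 and -2.93, -2.82 and -2.48 in H1975 with PBS at 6 h. At 24 h it measured -2.55, -2.67 and -3.0 in A549 and -3.22, -3.03 and -3.05 in H1975. The line difference was -0.41 ± 0.21 and -0.36 ± 0.21 (limma adjusted p = 0.113 and 0.158), and with run as a block it was -0.46 and -0.41 (limma adjusted p = 0.0304 and 0.0479). In H1975 with Pirfenidone at 24 h, the levels were -2.83, -2.69 and -2.84, all above PBS, beside 31.9% of all tested probes without overlap. The change was 0.31 ± 0.21 (limma adjusted p = 0.433, and 0.108 with run as a block). The changes at 6 h were -0.28 in A549 and -0.22 in H1975, and the change in A549 at 24 h was -0.17, or -0.18 without the pair of run 1.

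BAMBI was the pseudoreceptor examined, a decoy that shortens the signal from receptor complexes. In A549 with PBS, its level was 4.59, 4.46 and 4.25 at 6 h and 4.47, 4.61 and 5.02 at 24 h. In H1975 with PBS, it was 2.49, 3.41 and 3.38 at 6 h and 3.34, 3.28 and 2.28 at 24 h. Run 1 gave the lowest H1975 array in all 4 groups, with levels of 2.28 to 2.93 against 3.28 to 3.67 in runs 3 and 4. BAMBI was lower in H1975 by 1.34 ± 0.31 (log2, SE) after 6 h and 1.73 ± 0.31 after 24 h (limma adjusted p = 0.000948 and 7.52e-05), and within run 3 alone the difference was -1.05 and -1.27.

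Pirfenidone changes of BAMBI did not pass. With the drug, levels in A549 measured 4.45, 4.31 and 4.58 after 6 h and 4.47, 4.72 and 4.48 after 24 h, and those in H1975 3.67, 3.60 and 2.93 after 6 h and 3.56, 3.51 and 2.59 after 24 h. The log2 change was 0.01 and -0.15 in A549, with 95% confidence intervals from -0.63 to 0.65 and from -0.79 to 0.50. Without the pair of run 1, the A549 change at 24 h was 0.05 ± 0.38 (limma adjusted p = 1). In H1975 the change was 0.30 at 6 h and 0.25 at 24 h, with intervals from -0.34 to 0.95 and from -0.39 to 0.89 (limma adjusted p = 0.857 and 0.715). In each of the 6 pairs of H1975 arrays of the same run, BAMBI was higher with Pirfenidone, by 0.22 to 0.44. With run as a block these changes did not pass either (limma adjusted p = 0.199 at 6 h and 0.188 at 24 h).

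The coreceptors separated the lines in opposite directions. TGFBR3 measured -3.80, -4.28 and -3.77 in A549 and -5.54, -5.00 and -5.23 in H1975 with PBS at 6 h. At 24 h it measured -3.82, -4.32 and -3.74 in A549 and -4.81, -4.87 and -5.60 in H1975. It was lower in H1975 by 1.31 ± 0.23 (log2, SE) after 6 h and 1.13 ± 0.23 after 24 h (limma adjusted p = 6.59e-05 and 0.000289). The size differed between runs, with -1.77 and -0.72 in runs 1 and 3 at 6 h and -1.85 and -0.49 at 24 h. With normexp background correction the differences were -0.96 and -0.83 and did not pass, and without replicate 3 of H1975 with PBS at 24 h, the array of run 1, the difference was -0.88, below 2-fold.

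With Pirfenidone, TGFBR3 in H1975 at 24 h measured -4.55, -4.55 and -4.71, above all PBS arrays, beside 31.9% of all tested probes without overlap. The change was 0.49 ± 0.23 (limma adjusted p = 0.219, and 0.0433 with run as a block), and 0.89, 0.26 and 0.31 within runs 1, 3 and 4. With the block and no fold limit, 21.8% of all tested probes passed in H1975 at 24 h. The TGFBR3 change was 0.26 in H1975 at 6 h, and -0.33 and 0.21 in A549 at 6 h and 24 h. The latter was 0.35 ± 0.29 without the pair of run 1.

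ENG was the sharpest difference between the lines. In H1975 with PBS it measured 0.50, 0.56 and 0.53 at 6 h and 0.50, 0.54 and 0.62 at 24 h. In A549 it was well above background on none of the 12 arrays, with measured levels between -9.10 and -7.81. Against the lowest signal that counted as well above background on the A549 arrays, ENG was at least 169-fold higher in H1975 at 6 h and at least 155-fold higher at 24 h. Its probe was among those tested through the H1975 groups alone, where it is high, so its passing between the lines follows from the filter. It is left out of the counts below unless ENG is said to be included. The lines are epithelial, and of the 7 endothelial markers only CDH5 was well above background on all arrays of A549, and PECAM1, VWF and CDH5 on all arrays of H1975. The part of these markers in the ENG level was not tested. ENG in H1975 changed by -0.02 at 6 h and 0.08 at 24 h with Pirfenidone, with 95% confidence intervals from -0.51 to 0.48 and from -0.42 to 0.57.

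**Figure D3:**
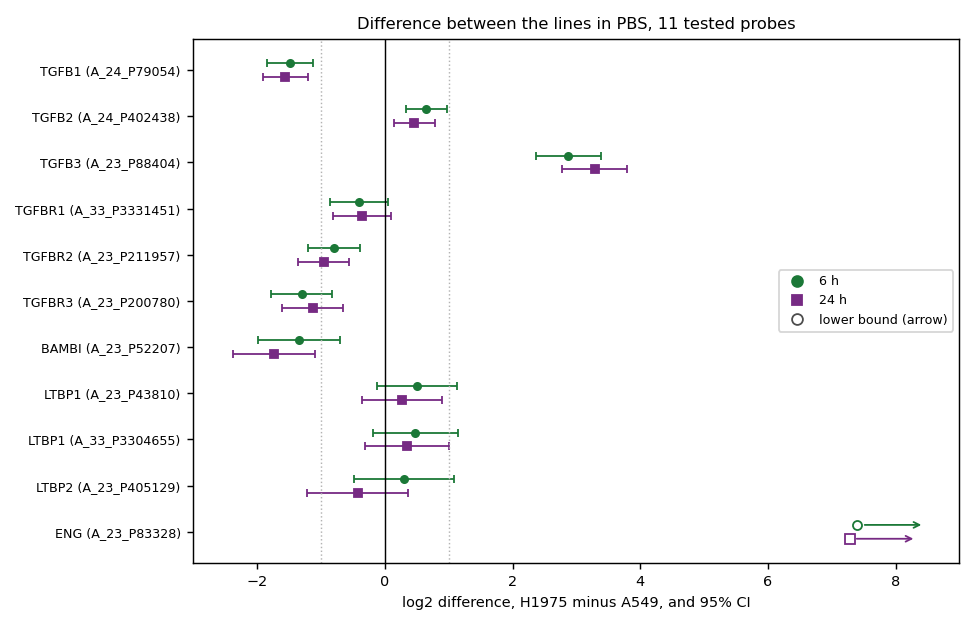
Difference between H1975 and A549 with PBS for the 11 tested probes on the log2 scale, with circles for 6 h, squares for 24 h, bars for 95% confidence intervals, dotted lines at 2-fold and open symbols with arrows for lower bounds. TGFB3 and ENG lie to the right and TGFB1, TGFBR3 and BAMBI to the left of the 2-fold lines at both times.

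Of the 10 tested probes other than that of ENG, 1 passed as higher and 3 as lower in H1975 than in A549 at each time, beside 32.4% and 32.9% of all tested probes in either direction. The share of 4 in 10 was thus not far from that of the whole array. With no fold limit, 6 of the 10 passed at each time, with TGFB2 and TGFBR2 added, beside 58.6% and 59.2% of all tested probes. The median difference of the 11 probes, ENG included, was 0.30 at 6 h and -0.36 at 24 h, and that of all tested probes was 0.06 and 0.08.

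For Pirfenidone, none of the 11 probes passed in A549 at 6 h or 24 h or in H1975 at 6 h, beside 0.176%, 0.0126% and 0.491% of all tested probes. Without adjustment, p was below 0.05 for 1 probe of A549 after 6 h and none after 24 h, and for 1 and 3 probes of H1975. The median change of the 11 probes was -0.05 for A549 at both times, and for H1975 -0.02 after 6 h and 0.31 after 24 h, and that of all tested probes was -0.01, -0.02, 0.05 and 0.02. No probe of the 11 was free of overlap in A549 at 24 h, beside 1.82% of all tested probes. In H1975 at 24 h, 6 of the 11 were higher on all Pirfenidone than on all PBS arrays, namely those of TGFB1, TGFBR1, TGFBR3, LTBP1 and LTBP2, beside 31.9% of all tested probes without overlap. With run as a block, 6 of the 11 passed the adjusted p with no fold limit there, beside 21.8% of all tested probes. None of the 11 probes passed for a difference of the drug change between the lines or the times, or between 24 h and 6 h of PBS, beside 0.0336% and 0.193% of all tested probes for the line difference of the 6 h and 24 h changes, 0.0294% and 0.0042% for the time difference of the change in A549 and H1975, and 0.109% and 0.315% for PBS in A549 and H1975.

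**Figure D4:**
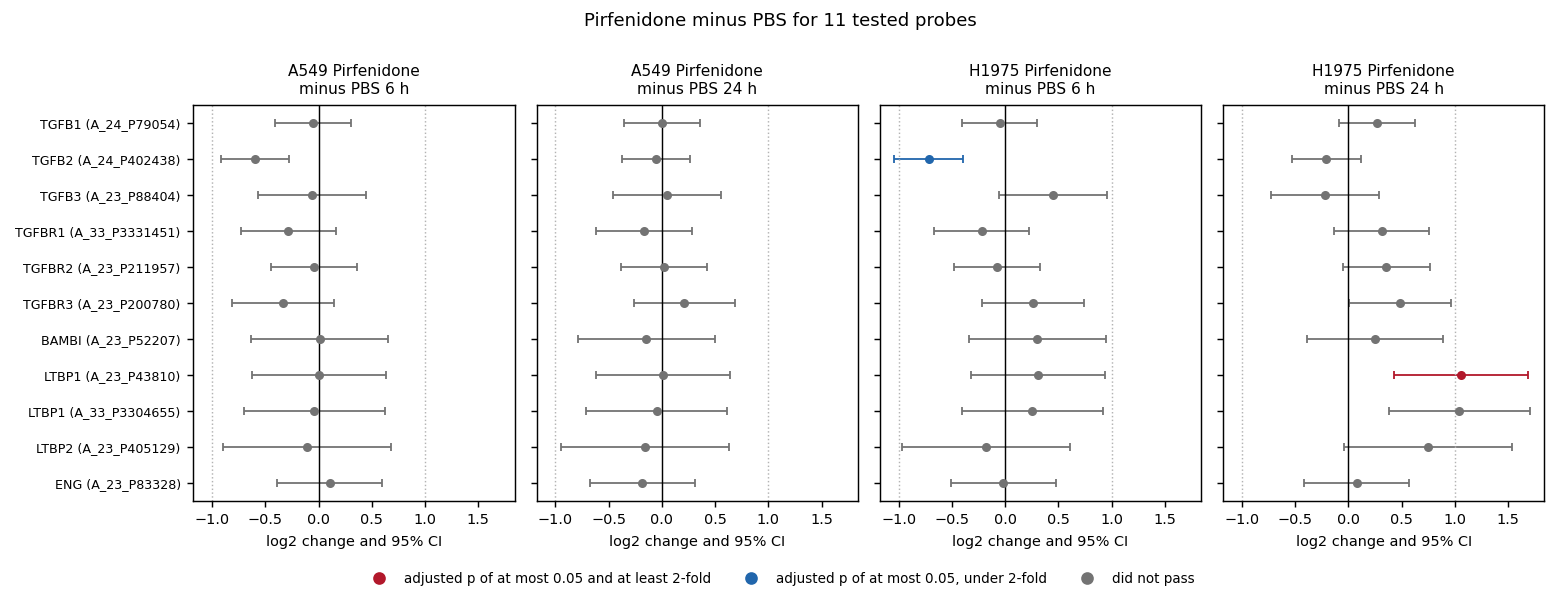
Pirfenidone minus PBS on the log2 scale for the 11 tested probes in the 4 comparisons, with bars for 95% confidence intervals and dotted lines at 2-fold. LTBP1 in H1975 at 24 h passed the adjusted p and the 2-fold limit, TGFB2 in H1975 at 6 h passed the adjusted p alone, and no probe passed in A549.

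The other genes of the pathway were examined in 6 lists of 18, 21, 13, 13, 24 and 37 genes (latency and activation, other ligands, other receptors, antagonists, SMAD factors and regulators, and response genes), each gene by its brightest probe. In A549 no gene of any list passed with Pirfenidone at 6 h or 24 h, with the arrays of run 1 included. In H1975 none passed among 16 tested genes of latency and activation, 12 other receptors and 24 SMAD factors and regulators at either time. At 24 h the median changes of these lists were 0.30, 0.23 and 0.14, those of the other ligands, antagonists and response genes were -0.02, -0.04 and 0.19, and that of all tested probes was 0.02. Over all tested probes 0.491% passed at 6 h and 1.89% at 24 h. Among 16 other ligands, 1 passed at 6 h and 2 at 24 h, all higher. Of those at 24 h, INHBE was tested through drug groups alone. Among 9 antagonists 1 passed at 24 h as lower, and among 36 TGFβ response genes 1 was higher and 1 lower at 6 h and none passed at 24 h.

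GDF15, a stress-induced ligand of the superfamily, measured 1.14, 2.05 and 2.04 with PBS and 3.61, 3.61 and 3.35 with Pirfenidone in H1975 at 6 h. At 24 h it measured 2.10, 2.25 and 2.04 with PBS and 4.12, 4.23 and 4.46 with Pirfenidone. It rose by 1.78 ± 0.21 (log2, SE) and 2.14 ± 0.21 (limma adjusted p = 0.000172 and 1.61e-05). In A549, where all 12 levels lay between 4.15 and 4.82, the change was 0.25 and -0.09. The line difference of the 24 h change passed (2.24 ± 0.29, limma adjusted p = 0.00131). Both 24 h values include the A549 pair of run 1, which measured 4.82 with PBS and 4.31 with Pirfenidone. Runs 2 and 3 measured 4.35 and 4.33 with PBS and 4.34 and 4.57 with Pirfenidone. INHBE, an inhibin subunit gene, rose by 1.63 ± 0.44 in H1975 at 24 h (limma adjusted p = 0.0357), from -7.22, -7.27 and -6.45, of which only the third was well above background, to -6.04, -5.71 and -4.31. Only A549 with Pirfenidone at 6 h and H1975 with Pirfenidone at 24 h had INHBE well above background on all 3 arrays. It was thus tested through drug groups alone, and its passing follows in part from the filter. In A549 at 6 h the INHBE change was 1.05 ± 0.44, without overlap, and did not pass (limma adjusted p = 0.681).

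FST encodes follistatin, which binds and neutralizes activins. In H1975 at 24 h it measured -6.20, -6.20 and -7.38 with PBS, the last not well above background, and was so on no Pirfenidone array. It passed as lower on the measured levels (limma adjusted p = 0.0359). Against the lowest signal that counted as well above background, it was at least 1.78-fold lower, a bound short of 2-fold. ID2, a target of BMP signaling that TGFβ represses in epithelial cells, rose by 1.04 ± 0.17 in H1975 at 6 h (limma adjusted p = 0.00396), from 0.54, 1.1 and 1.09 to 2.0, 2.03 and 1.82. EDN1, the endothelin-1 gene, fell by 1.44 ± 0.28 there (limma adjusted p = 0.0106), from -0.16, 0.32 and 0.57 to -1.07, -0.84 and -1.69, and its change at 24 h was 0.06. In A549 at 6 h, EDN1 measured 2.92, 2.77 and 3.14 with PBS and 2.74, 2.48 and 2.69 with Pirfenidone. These A549 groups did not overlap, as for 15.3% of all tested probes, and the change did not pass. In H1975 with PBS, INHBA, another activin subunit gene, was the single list gene that passed between the times, lower by 1.33 ± 0.29 at 24 h (limma adjusted p = 0.0361).

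**Figure D5:**
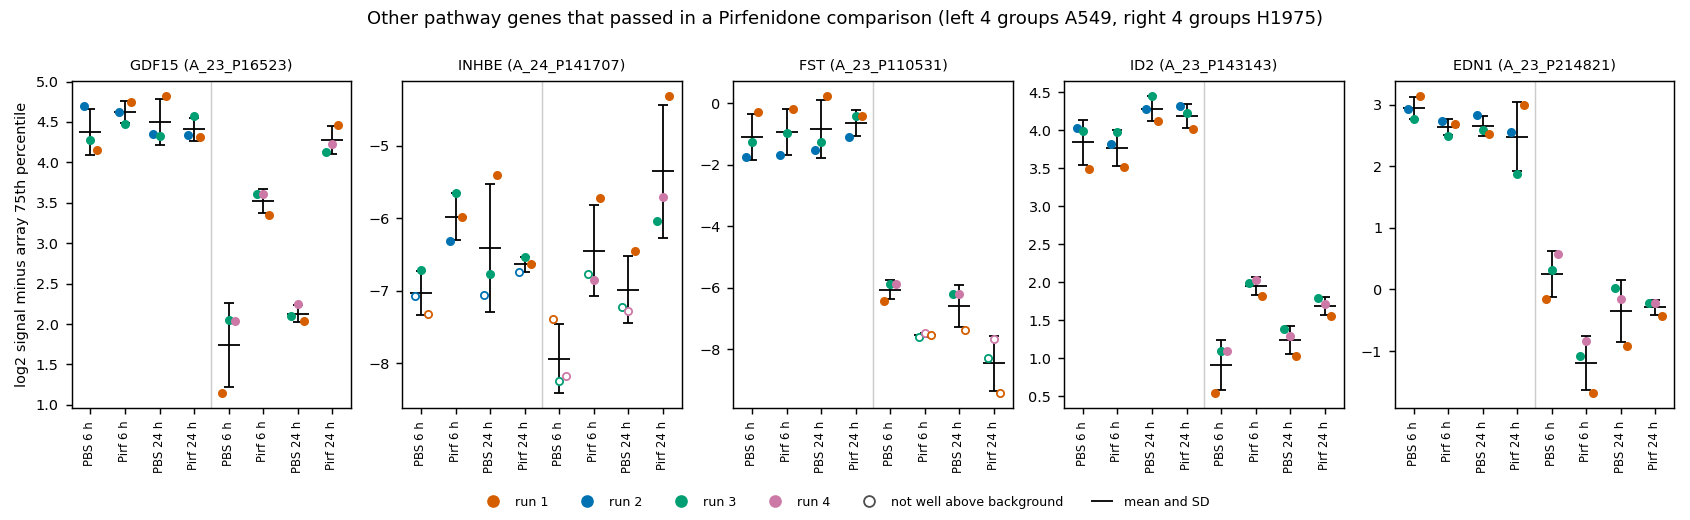
Levels of the 5 other pathway genes that passed with Pirfenidone, as log2 signal minus the 75th percentile of the array, with points for arrays colored by run, open points for arrays not well above background and bars for the mean and SD of 3 arrays. GDF15 and ID2 in H1975 lie higher with Pirfenidone at 6 h without overlap, EDN1 lies lower at 6 h, and A549 groups overlap for GDF15 and ID2. In A549 at 6 h, INHBE lies higher and EDN1 lower with Pirfenidone, also without overlap.

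With PBS, genes of each list also passed between the lines, beside 32.4% of all tested probes at 6 h and 32.9% at 24 h, and nothing particular to a list is read from its counts. Genes given as a fold bound were well above background on no PBS array of the lower line. The counts include genes tested through a single line, such as FBN2 and MMP2 (A549) and MMP14 (H1975). As for ENG, the passing of such genes follows from the filter. Up to 4 of the largest differences of each are named here as H1975 minus A549. In latency and activation, 5 of 16 genes were higher and 3 lower at each time. FBN2 (fibrillin-2) was at least 124-fold and 141-fold lower at 6 h and 24 h, MMP2 at least 2.84-fold and 3.18-fold lower, MMP14 differed by 7.15 and 6.36 with 2 and 1 of the 3 A549 arrays well above background, and PLAT by 2.39 and 2.89. Among the 16 other ligands, 4 were higher and 5 lower at 6 h and 3 higher and 4 lower at 24 h. BMP6 was at least 152-fold and 132-fold lower, INHBB differed by -6.73 and -6.27, BMP2 by 5.24 and 4.34, and BMP7 by -3.68 and -2.56.

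Of the 12 other receptors, 2 were higher and 2 lower at 6 h (ACVR1C 2.01, RGMB 1.21, BMPR1B -2.13, AMHR2 at least 11.4-fold lower), and 1 was higher and 3 lower at 24 h (ACVR1C 2.40, BMPR1B -2.27, BMPR2 -1.17, AMHR2 at least 4.64-fold lower). Of the 9 antagonists, 1 was higher and 3 lower at 6 h and 1 higher and 5 lower at 24 h, with NOG at 3.21 and 2.74, FST at -4.97 and -5.75 and GREM1 at least 29.8-fold and 13.2-fold lower. Of the 24 SMAD factors and regulators, 1 was higher and 5 lower at 6 h and 2 higher and 7 lower at 24 h. SMAD6, an inhibitory SMAD, differed by -2.95 and -3.05, PMEPA1 by -1.54 and -2.14, TGIF1 by -1.37 and -1.37, and SMURF1 by 1.31 and 1.35. Of the 36 response genes, 14 were higher and 8 lower at 6 h and 11 higher and 10 lower at 24 h, with CDH2 at -8.47 and -8.81, COL4A1 at -6.97 and -6.94, SNAI2 at 4.78 and 4.37 and CDKN2B at least 3.68-fold and 5.43-fold higher.

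The genes whose levels followed LTBP1 and LTBP2 most closely were found by Pearson correlation over the 24 arrays after each line was centered on its mean, among 16131 other genes. These arrays share treatments, times and runs, so the values are descriptions. For LTBP1 the 3 closest were GARNL3 (r = 0.954), PTPRM (r = 0.93) and GXYLT2 (r = 0.929), with 0.923, 0.789 and 0.936 within A549 and 0.967, 0.967 and 0.949 within H1975. For LTBP2 they were COL6A1 (r = 0.863), GPSM1 (r = 0.862) and P4HA3 (r = 0.852), with 0.948, 0.894 and 0.942 within A549 and 0.698, 0.819 and 0.699 within H1975.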

How the data were processed

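The authors deposited the scanner output of each array from Agilent Feature Extraction version 11.5.1.1 (probe positions on hg19), which holds background-subtracted spot intensity without normalization between arrays. They also deposited a log2 value table of these arrays, with each probe centered on its median. No source used here states the scaling of that table, whose 24 column medians lay between -0.163 and 0.156 and whose values, compared with the scanner values centered likewise, gave r = 0.9994. For the present values, log2 of the processed signal had the 75th percentile over the 43118 non-control spots of its array subtracted. Flagged outlier spots were dropped and repeated spots averaged, with a probe taken as well above background if this held for a share of 0.5 or more of them. Tests used limma version 3.58.1 (R version 4.3.3) on probes well above background throughout at least 1 group, with all 8 groups fitted together (16 residual degrees of freedom) and 12 comparisons. Passing meant an adjusted p (Benjamini-Hochberg) of at most 0.05 together with a log2 change of 1 or more in size, unless no fold limit is stated. The steps were checked on simulated data. The number of arrays limits the precision.

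Members and gene lists were chosen with earlier results of these data known. List genes that passed were all named up to 4 per list and comparison, and otherwise the 4 largest, except for an item that is not reported here. A replicate number stands for the same run in every A549 group and in both H1975 groups at 24 h, but not in H1975 at 6 h. The deviations of arrays of the same run from their group means correlated with r between 0.50 and 0.82 (H1975, 6 h), 0.46 and 0.72 (H1975, 24 h) and 0.58 and 0.70 (A549, 6 h), but in A549 at 24 h with r of 0.39, 0.08 and -0.10, so the run block there joins arrays of which 2 of 3 pairs did not deviate together. Alternatives were other background corrections, scalings, filters and blocks, the authors' values and genes in place of probes. An ordinary t-test of the drug changes, paired by run, and leaving out each array in turn were others.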

Additional observations from a re-analysis of the deposited data

How the results depend on the processing

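For H1975 with Pirfenidone at 24 h, 1 member probe passed. The number was 0 with normexp background correction, with no filter on dim probes and with only the arrays compared. It was also 0 with the ordinary paired t-test after Benjamini-Hochberg adjustment. It was 2, both of LTBP1, with quantile normalization, with the filter that asks for signal above background on all 24 arrays and with the replicate block. Run as a block, slide as a random block and the ordinary paired t-test without adjustment also gave 2. Leaving out 1 array gave 0 to 1. With no fold limit, 1 probe passed in H1975 at 6 h in place of 0. With run as a block, 2 passed for the line difference of the drug change at 24 h in place of 0. The cause was not tested, except that dropping arrays or adding dim probes changes the number of samples or tests. With run as a block and no fold limit together, 1 passed in place of 0 in A549 at 6 h and between the times of PBS in H1975, and 6 in place of 1 in H1975 at 24 h. Counts under the 2-fold limit otherwise stayed within 1.5 times. Between the lines at 24 h, ENG included, 4 to 6 probes passed in place of 5 when 1 array was left out. This count differed from 5 in 5 of the 6 such fits. No value that passed under either setting changed direction. For single probes, 2428 values kept their side of the threshold, 12 newly passed and 11 no longer did.

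The replicate number does not pair the arrays of H1975 at 6 h, where arrays of the same number correlated with r of -0.48, 0.43 and -0.68. The blocks were nested in line except for the comparisons between lines. Normexp moved the median of all probes in H1975 at 6 h from 0.05 to 0.29, so the TGFB2 change of -0.35 there is read against that shift. Signal near background limits ENG in A549, the dim TGFBR2 probe, INHBE and FST.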
